A study of Mus musculus with 12 samples.

Results

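The mitochondrial ribosome is the machine that translates the few messenger RNAs made inside mitochondria. Its proteins are encoded by nuclear genes, the Mrpl genes for the large subunit, which forms peptide bonds, and the Mrps genes for the small subunit, which reads the message, and they are imported to join ribosomal RNAs that the mitochondrial genome encodes. Everything it makes is a membrane subunit of the respiratory chain or the ATP synthase, on which neurons with their high energy demand depend. The members described here are the genes whose symbol begins with Mrpl or Mrps followed by a number in the platform annotation. They are 76 of 19057 annotated genes, 48 of the large and 28 of the small subunit, and were measured by 132 probes. Of these genes 72 had a probe that could be tested, 45 of the large and 27 of the small subunit.

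RNA came from the hippocampus of C57BL/6J males aged 3 weeks (postnatal day 21) and was read on Illumina bead arrays, 1 array for each sample. The EtOH group holds 6 arrays from offspring of dams that drank 10% (v/v) ethanol by choice between 0.5 and 8.5 days after conception, and the Control group holds 6 arrays of mice labelled as controls. What the control dams drank is not given in the sources used here. Both groups were spread over 2 beadchips, with 3 arrays of each group on each. This split was inferred from a number in the sample titles, which no label calls a beadchip. Labels do not say which mice were littermates, so a p-value here covers the spread among these samples, which may be partly technical.

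Markers of hippocampal pyramidal and granule neurons were detected on all 12 arrays for 9 of 12 genes listed, and those of interneurons for 5 of 5. Between 20804 and 21672 probes were detected per array. Some arrays stood apart. The choroid plexus gene Ttr was low on 4 arrays, EtOH replicates 1 and 3 and Control replicates 1 and 4, at 8.33 to 11.0 on the log2 scale, so differences without these 4 arrays are also given. Of these, EtOH replicates 1 and 3 and Control replicate 1 are on beadchip 1, and Control replicate 4 is on beadchip 2. The arrays left are therefore not balanced over the beadchips. The fit without the 4 arrays has no beadchip term, so its values may hold a part of the beadchip difference. Red cell markers were lower in EtOH, with a median difference of -0.57 over 4 tested genes, each at an unadjusted p under 0.05. Their mean log2 signal ran from 10.7 to 11.9 in EtOH and from 11.2 to 12.3 in Control. Their part in the results below was not tested.

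Comparing EtOH with Control mice asks whether exposure in the first days of gestation left a difference in these genes in the juvenile hippocampus. No mitochondrial ribosomal protein gene passed the test. By limma with Benjamini-Hochberg adjustment over 21263 probes, 0 of 72 genes had an adjusted p under 0.05, where 0% of all probes were called, and the lowest adjusted p of a member was 1.00. Before adjustment 3 genes had a p under 0.05, namely Mrps6, Mrpl51 and Mrps25, all lower in EtOH. That is 4.17% of the members, beside 4.81% of all probes in either direction 2.35% in the lower and 2.45% in the higher direction. The count ran from 1 to 4 when single arrays were left out, and was 1 without EtOH replicate 1 or 6 or Control replicate 4, 5 or 6. The groups overlapped for all 72 members, where 0.202% of all probes did not overlap, 0.113% lower and 0.0894% higher in EtOH. On the brightest tested probe, which stood for a gene, every member's 95% interval lay within a 1.5-fold change in either direction. Of all probes 92.3% did so. Within 1.3-fold lay 69 of 72 members and 66.0% of all probes. Among the members these were 43 of 45 in the large and 26 of 27 in the small subunit. The members' median log2 signal was 10.8 and their median SD over the 12 arrays 0.12, against 8.11 and 0.19 for all probes. The part of signal level in these shares was not tested. Other probes of the members were not counted.

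**Figure D1:**
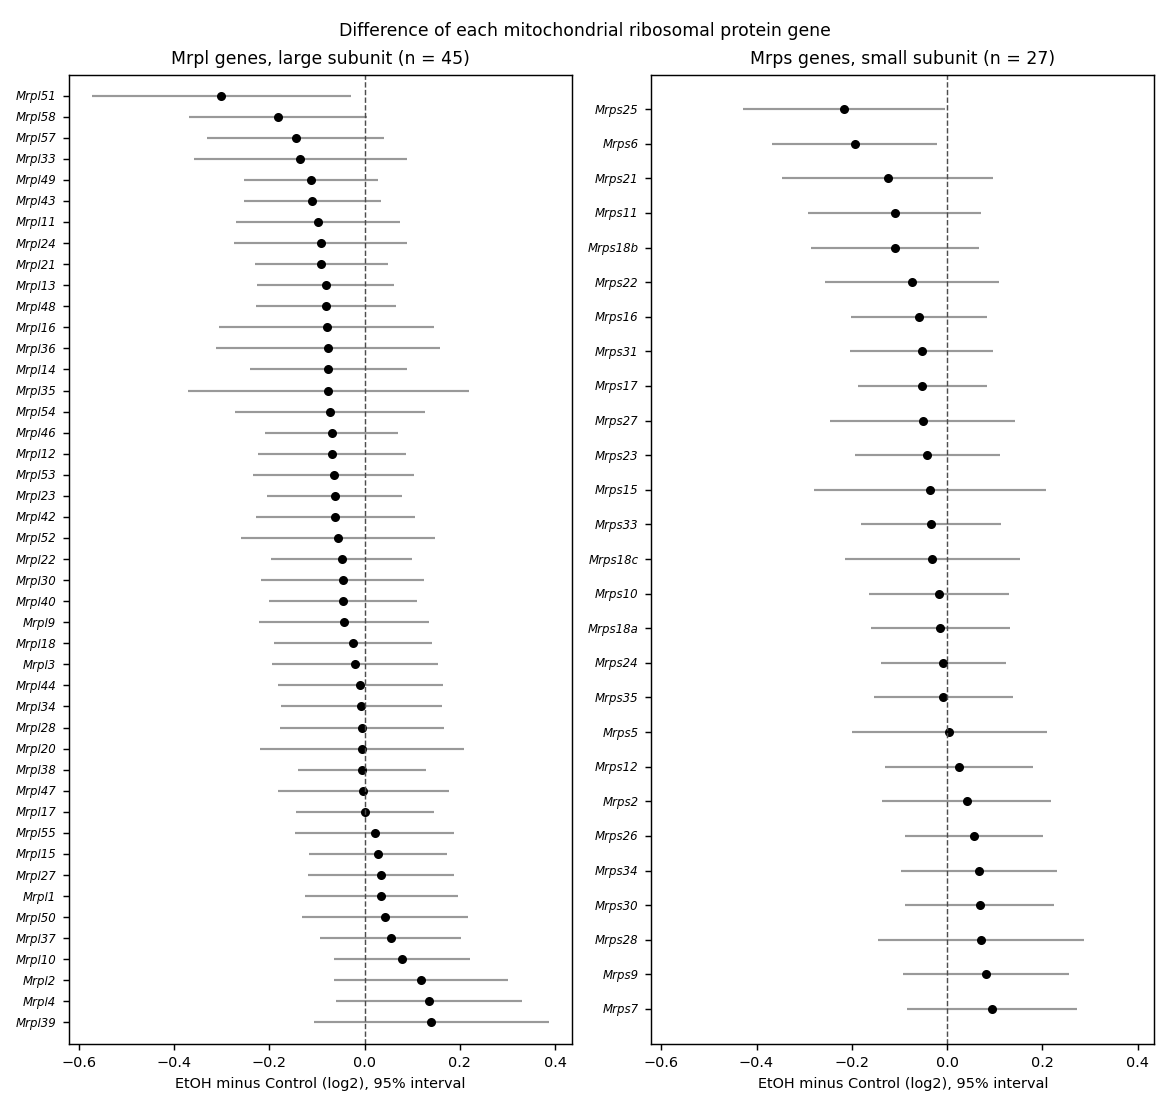
Difference between EtOH and Control on the log2 scale for each tested gene of the large subunit (left, 45 genes) and small subunit (right, 27 genes); points are limma estimates over 12 arrays and lines their 95% intervals. Values run from -0.30 for Mrpl51 to 0.14 for Mrpl39, and the intervals of Mrpl51, Mrps25 and Mrps6 alone leave out 0, before any adjustment.

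Mrps6, the homologue of a bacterial small subunit protein that pairs with protein S18 on the platform of the subunit, had the smallest p. Its log2 signal had a lowest, median and highest value of 10.38, 10.68 and 10.79 in EtOH, against 10.72, 10.82 and 10.94 in Control. Of the EtOH arrays 5 lay below every Control array. The means were 10.63 ± 0.15 in EtOH and 10.82 ± 0.09 in Control (SD, n = 6), which differ by -0.19 with a 95% interval of -0.37 to -0.02 and an adjusted p of 1.00 by limma. Without EtOH replicate 1 it was -0.14, and without the 4 arrays low in Ttr -0.10.

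Mrps25, a small subunit protein with no bacterial counterpart, had log2 signals of 8.14, 8.59 and 8.78 in EtOH (lowest, median and highest), against 8.68, 8.78 and 8.84 in Control. On this gene 4 EtOH arrays lay below every Control array, and the other two lay among them. The difference was -0.22 (95% interval -0.43 to -0.005, adjusted p = 1.00 by limma), and the other tested probes of the gene gave -0.11 and -0.21. It was -0.13 without EtOH replicate 1.

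Mrpl51, a protein of the large subunit specific to mitochondria, had the widest difference of any member. Its log2 signal was 6.84, 7.52 and 7.76 in EtOH (lowest, median and highest), against 7.66, 7.71 and 7.86 in Control. EtOH replicate 1 was the lowest array, and 5 EtOH arrays lay below every Control array. The difference was -0.30 (95% interval -0.57 to -0.03, fold 0.812, adjusted p = 1.00 by limma), and it was -0.18 without EtOH replicate 1, which is smaller by over 1.5 times. It was -0.19 without background correction, and the 2 other probes gave -0.11 and -0.17.

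**Figure D2:**
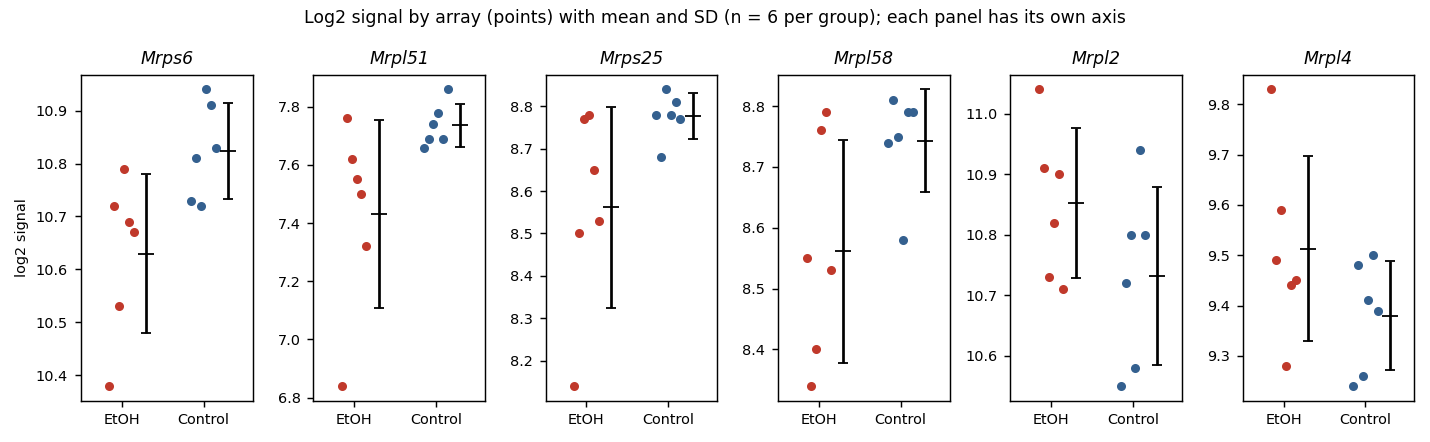
Log2 signal on each array for 6 members, with EtOH left of Control in every panel; points are arrays, and the bars give the mean and SD (n = 6 per group). The groups overlap in every panel, and the lowest EtOH points of Mrps6, Mrpl51 and Mrps25 and the highest of Mrpl2 and Mrpl4 are EtOH replicate 1.

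The promoters of these 3 genes are shown because they are the members with the smallest p. Each window runs from 250 bases before to 50 after the gene start (RefSeq, GRCm38.p6), 5′ to 3′ on the gene's strand, and capitals mark matches to the 5 motifs searched, which are spelled out further on. Mrps6 lies on the plus strand at chr16:92058086-92058385 and has no match, Mrps25 on the minus strand at chr6:92183974-92184273 has 1 CCAAT box, and Mrpl51 on the plus strand at chr6:125191950-125192249 has 1 ETS family match.
Mrps6: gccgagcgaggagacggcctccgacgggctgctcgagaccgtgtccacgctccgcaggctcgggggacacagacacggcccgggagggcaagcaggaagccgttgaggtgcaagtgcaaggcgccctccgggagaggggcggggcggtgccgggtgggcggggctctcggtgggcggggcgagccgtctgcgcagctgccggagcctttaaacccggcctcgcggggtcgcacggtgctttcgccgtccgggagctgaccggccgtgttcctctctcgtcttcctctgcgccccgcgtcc
Mrps25: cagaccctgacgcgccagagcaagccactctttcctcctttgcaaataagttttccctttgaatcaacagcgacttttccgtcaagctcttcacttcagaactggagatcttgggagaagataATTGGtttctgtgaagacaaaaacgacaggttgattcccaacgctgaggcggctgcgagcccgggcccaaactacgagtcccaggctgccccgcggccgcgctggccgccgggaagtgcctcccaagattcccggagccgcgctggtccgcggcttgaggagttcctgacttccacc
Mrpl51: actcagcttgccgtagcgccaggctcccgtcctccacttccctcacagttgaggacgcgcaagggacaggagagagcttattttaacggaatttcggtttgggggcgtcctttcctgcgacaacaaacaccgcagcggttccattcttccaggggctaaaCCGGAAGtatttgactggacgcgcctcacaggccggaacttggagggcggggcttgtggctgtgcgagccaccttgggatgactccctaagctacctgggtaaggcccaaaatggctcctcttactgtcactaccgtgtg

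Within the large subunit, the proteins of the stalk, which recruits translation factors, did not share a direction. Mrpl10, the stalk's anchor, was at 11.81 ± 0.08 in EtOH and 11.73 ± 0.08 in Control (SD, n = 6), which differ by 0.08 (95% interval -0.06 to 0.22), and its second probe gave -0.05. It was 0.05 without Control replicate 2. Mrpl12, the flexible stalk protein that in human cells also binds the mitochondrial RNA polymerase, was at 11.43 ± 0.08 in EtOH and 11.50 ± 0.12 in Control, a difference of -0.07. It was -0.04 without EtOH replicate 2 or without Control replicate 6, and -0.13 without the 4 arrays low in Ttr. Mrpl11, at the base of the stalk, differed by -0.10 (95% interval -0.27 to 0.07), or by -0.15 without EtOH replicate 1, the single array high for it, and by -0.22 without the 4 arrays low in Ttr. None of these intervals leaves out 0.

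Of the proteins around the catalytic centre and the exit tunnel, Mrpl2, Mrpl3 and Mrpl4 were named, and they did not share a direction either. Other proteins of these sites are not described here. Mrpl2, which lies at the peptidyl transferase centre, had log2 signals of 10.71, 10.86 and 11.04 in EtOH (lowest, median and highest), against 10.55, 10.76 and 10.94 in Control. The difference was 0.12 (95% interval -0.06 to 0.30), and 0.02 without the 4 arrays low in Ttr. Mrpl4, a protein of the exit tunnel, had log2 signals of 9.28, 9.47 and 9.83 in EtOH and of 9.24, 9.40 and 9.50 in Control, a difference of 0.13 (95% interval -0.06 to 0.33). It was 0.31 on beadchip 1 and -0.04 on beadchip 2, 0.07 without EtOH replicate 1 and 0.01 without the 4 arrays low in Ttr. Mrpl3, which also reaches the catalytic centre, differed by -0.02, with 0.11 and -0.04 on its other probes. Mrpl21, named for its moderated t and not for its site, differed by -0.09. Mrpl3 was at -0.09 and Mrpl21 at -0.17 without the 4 arrays low in Ttr. No interval of these genes leaves out 0.

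Among the large subunit proteins specific to mitochondria, Mrpl58, which keeps the activity of a peptide release factor and frees stalled ribosomes, had an unadjusted p of 0.0565 and an adjusted p of 1.00 by limma. It had log2 signals of 8.34, 8.54 and 8.79 in EtOH (lowest, median and highest), against 8.58, 8.77 and 8.81 in Control, and 4 EtOH arrays lay below every Control array. Its difference was -0.18 (95% interval -0.37 to 0.01), at -0.33 on beadchip 1 and -0.03 on beadchip 2. Mrpl49 and Mrpl43 each had all 6 EtOH arrays below the Control mean. So had Mrpl48, named after its values were seen, at -0.08, with 0.04 and -0.03 on its other probes. The share of all probes with such a count was not taken. Mrpl49 differed by -0.11 (95% interval -0.25 to 0.03), with 3 other probes at -0.15, -0.02 and 0.08. Mrpl43 differed by -0.11 (95% interval -0.25 to 0.04), with -0.04 on its other probe. Mrpl57 differed by -0.15, or by -0.09 without EtOH replicate 1 or without background correction. Mrpl44, which has the fold of an RNA-cutting enzyme, differed by -0.01. On the higher side Mrpl39 was at 0.14 (95% interval -0.11 to 0.39), Mrpl37 at 0.05 and Mrpl50 at 0.04. The Mrpl39 value was 0.06 without EtOH replicate 6, and 0.06 without background correction. Mrpl37 was at 0.02 without Control replicate 1 and at 0.09 without Control replicate 2. Without the 4 arrays low in Ttr, Mrpl37 was at 0.01, Mrpl44 at -0.07 and Mrpl50 at 0.08.

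Within the small subunit, Mrps12, the protein of the decoding centre, differed by 0.02 (95% interval -0.13 to 0.18), with -0.03 on its other probe. Mrps7 and Mrps9, homologues of bacterial proteins of the head of the subunit, were at 0.09 (95% interval -0.08 to 0.27) and 0.08 (95% interval -0.09 to 0.26). On its second probe Mrps7 was at -0.06, and without EtOH replicate 1 it was at 0.04. Mrps9 was at 0.04 without Control replicate 1 and at 0.05 without Control replicate 6. Mrps28 was at 0.07, Mrps34 at 0.07, Mrps26 at 0.06 and Mrps2 at 0.04. Mrps28 was at -0.003 without Control replicate 1. Mrps34 was at 0.03 without Control replicate 4, 0.04 without Control replicate 1 and 0.10 without EtOH replicate 2, and Mrps26 was at 0.04 without EtOH replicate 4 or without Control replicate 1. Mrps5 was at 0.004 over all arrays, but at 0.23 on beadchip 1 and -0.22 on beadchip 2, the smallest unadjusted interaction p of any member (0.016; adjusted p = 1.00 by limma). Lower values were those of Mrps21 at -0.12 (-0.05 without EtOH replicate 1), Mrps11 at -0.11, Mrps22 at -0.07 and Mrps16 at -0.06. Mrps21 was at -0.07 without Control replicate 5 and Mrps11 at -0.07 without EtOH replicate 2. Mrps22 was at -0.02 without EtOH replicate 5 and at -0.12 without EtOH replicate 1, and Mrps16 at -0.03 without EtOH replicate 5 and at -0.04 without Control replicate 5. Without the 4 arrays low in Ttr the higher values shrank or turned for Mrps7 (0.03), Mrps9 (-0.005), Mrps28 (0.03), Mrps34 (-0.03) and Mrps26 (0.02), whereas Mrps2 was at 0.08. Mrps5 was then at -0.06, Mrps21 at -0.06, Mrps22 at -0.19 and Mrps16 at -0.10. Mutations of MRPS22 and MRPS16 cause mitochondrial disease in humans.

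Vertebrates carry 3 paralogs of the bacterial protein S18, and structures place them at different sites. Mrps18c takes the bacterial position next to Mrps6, Mrps18b sits elsewhere in the small subunit, and Mrps18a, like Mrps30, is found in the large subunit in spite of its name. Mrps18c had log2 signals of 10.78 ± 0.12 in EtOH and 10.81 ± 0.15 in Control (SD, n = 6), which differ by -0.03 (95% interval -0.21 to 0.15). Mrps18b had 10.28 ± 0.09 in EtOH and 10.39 ± 0.16 in Control, a difference of -0.11 (95% interval -0.29 to 0.07), but its other 2 probes gave 0.16 and 0.03. Without the 4 arrays low in Ttr it was -0.25, at an adjusted p of 0.86 by limma. Mrps18a had 10.77 ± 0.05 in EtOH and 10.79 ± 0.11 in Control, a difference of -0.01. Mrps30 differed by 0.07 (95% interval -0.09 to 0.22), or by 0.03 without EtOH replicate 1. Without the 4 arrays low in Ttr, Mrps18c was at -0.01, Mrps18a at -0.05 and Mrps30 at -0.003. The interval of each paralog holds 0.

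As lists, both subunits had a median slightly below 0. In the large subunit 34 of 45 genes were lower and 11 higher, with a median difference of -0.05. In the small subunit 18 of 27 were lower and 9 higher, with a median of -0.03. Over all tested probes 49.3% were lower and the median was 0.002. The large minus the small median was -0.02. With Mrps18a and Mrps30 placed in the large subunit, the large minus the small median was -0.01. The median SD of a gene over the 12 arrays was 0.12 in the large and 0.13 in the small subunit, from 0.06 for Mrps24 to 0.27 for Mrpl51. The medians were -0.08 and -0.05 without the 4 arrays low in Ttr, where 24 of the 34 named genes turned sign or moved by over 1.5 times. By the same rule 27 of the 34 did so in at least 1 fit with a single array left out. Values near 0 meet this rule with small shifts.

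The direction of these medians rested on the scaling. Quantile normalization leaves the median of all probes near 0, whereas scaling each array to a common median put the median of all probes at 0.05. Under that scaling the median was 0.01 in the large and 0.03 in the small subunit, 26 of 72 members were lower, and 45 of 72 lay below the median of all probes, against 53 of 72 with quantile normalization. Members with a bacterial homologue had a median of -0.03, with 28 of 41 lower. Members classed as specific to mitochondria had a median of -0.05, with 24 of 31 lower. This class holds Mrps18a and Mrps18b, both lower, although they are paralogs of a bacterial protein. Their paralog Mrps18c, also lower, is in the other class. Neither this split nor the one by subunit was tested.

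The array means showed the same overlap of the groups. After each gene was centred on its mean over the 12 arrays, the Mrpl genes averaged -0.02 ± 0.04 in EtOH and 0.02 ± 0.07 in Control, and the Mrps genes -0.01 ± 0.02 in EtOH and 0.01 ± 0.07 in Control (SD, n = 6). The EtOH arrays ran from -0.07 to 0.04 for the large and from -0.03 to 0.01 for the small subunit, inside the Control range of -0.11 to 0.08 and of -0.10 to 0.10. Control replicate 1 alone sets the lower end of both Control ranges. The next lowest was Control replicate 6 at 0.002 for the large and Control replicate 4 at -0.01 for the small subunit. Below the Control mean lay 5 of 6 EtOH arrays for the large and 6 of 6 for the small subunit. The large minus the small mean of an array was -0.01 ± 0.03 in EtOH and 0.01 ± 0.02 in Control. It ran from -0.04 to 0.04 in EtOH and from -0.02 to 0.03 in Control. Here 3 EtOH arrays lay below every Control array and 1 above. This difference was not tested. The lowest array for both subunits was Control replicate 1, on which 61 of 72 members were below their own mean and 20 had their lowest value. It is 1 of the 4 arrays low in Ttr, with the nuclear respiratory chain genes at -0.18 and the cytosolic ribosomal proteins at -0.07. The highest was Control replicate 5, with 58 members above their mean. EtOH replicate 1 held the highest value of 11 members and the lowest of 13. Without Control replicate 1 the EtOH minus Control difference of the array means was -0.06 over all members, against -0.03 with it.

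**Figure D3:**
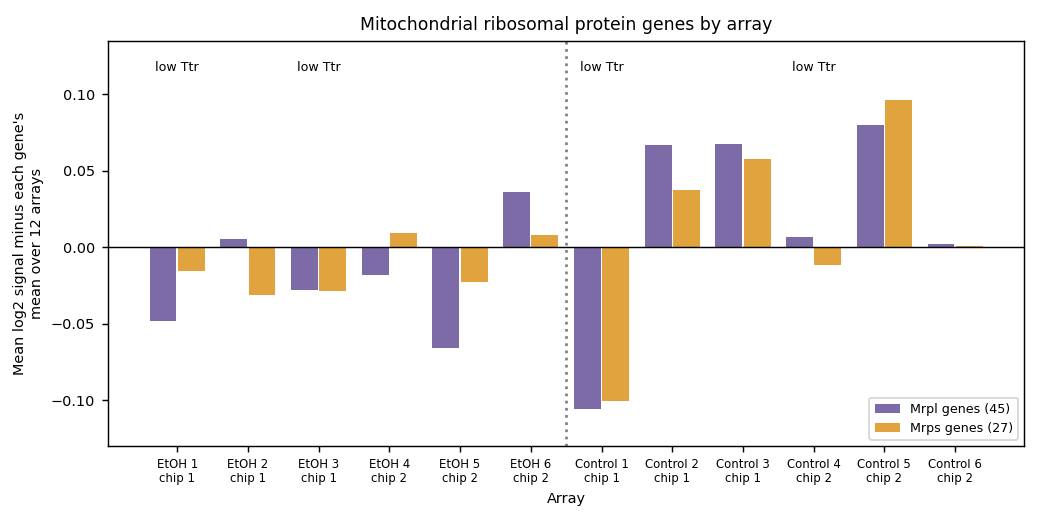
Mean log2 signal of the Mrpl genes (purple) and Mrps genes (orange) on each array after each gene is centred on its own mean over 12 arrays, EtOH left of Control; the 4 arrays low in Ttr are marked and the beadchip is given under each. Control replicate 1 is lowest at -0.11 and -0.10, Control replicate 5 highest at 0.08 and 0.10, and every EtOH array lies between them.

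Both medians were below 0 within each beadchip. On beadchip 1 the median difference was -0.03 in the large and -0.003 in the small subunit, and on beadchip 2 it was -0.05 and -0.02. Of 72 members 33 were lower on both beadchips, 10 higher on both, and the others differed in sign. The effect of exposure differed between beadchips for 0 members at an adjusted p under 0.05 by limma, where 0% of all probes were called, and for 2 members, Mrps5 and Mrpl4, at an unadjusted p under 0.05, where 4.2% of all probes were called. Beadchip 2 against beadchip 1, with group as a term, gave 0 members past the threshold, where 0.0282% of all probes passed. Before adjustment Mrps6 and Mrps21 had a p under 0.05, where 11.2% of all probes were called. Both were higher on beadchip 2, Mrps6 by 0.16 and Mrps21 by 0.22.

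Probes of 1 gene often differed in sign. Of 25 genes with several tested probes, the probes shared a sign in 12 and differed in sign in 13. Of the 38 tested probes beside the brightest, 1 had an unadjusted p under 0.05, a probe of Mrpl38 at -0.23 whose brightest partner gave -0.005. Of all tested probes 4.81% had such a p. Mrpl38 was named after its values were seen. The 4 members without a tested probe were Mrpl19, Mrpl32, Mrpl45 and Mrps14, whose probes were detected on 0 to 4 of the 12 arrays and give no bound on their level here.

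The partners of the mitochondrial ribosome were set beside it by lists. Of the mitochondrial ribosomal proteins named outside the Mrp scheme, 4 of 5 were tested and 2 were lower, with Chchd1 at -0.10, Gadd45gip1 at -0.23 and Dap3 at 0.04. Of the translation factors and assembly proteins 25 of 34 were higher, at a median of 0.03. At an unadjusted p under 0.05 were 3 of the 34, or 8.82%, beside 4.81% of all probes. Of these 1 was higher, Guf1, an elongation factor that acts on stalled ribosomes, at 0.40 (95% interval 0.14 to 0.67, adjusted p = 0.995 by limma). A further 2 were lower, Mrrf, which recycles the ribosome, at -0.32 and Tufm, the elongation factor that delivers transfer RNA, at -0.20. The list of mitochondrial aminoacyl-tRNA synthetases, which charge the transfer RNAs, also held Gatb, Gatc and Qrsl1, which are not synthetases. It had 12 of 19 higher at a median of 0.03, with Sars2 at 0.16. Genes of mitochondrial DNA transcription and upkeep had 7 of 15 higher at a median of -0.001, with Tfb2m at 0.13. In none of these lists did a gene pass the threshold over all probes. Without the 4 arrays low in Ttr the median was -0.02 for the translation factors and assembly proteins and -0.003 for the synthetase list. Both were above 0 with all arrays. For transcription and upkeep the median was then -0.01. No gene symbol started with mt-, the only form searched for transcripts of the mitochondrial genome, so these were not analysed here.

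The nuclear respiratory chain genes had 37 of 68 lower, at a median of -0.01, with Cox7b at 0.27 (95% interval -0.03 to 0.56), and 0 genes at an unadjusted p under 0.05. The cytosolic ribosomal proteins had 41 of 53 lower at a median of -0.06, and 3 of them, Rpl13a, Rps12 and Rps26, had an unadjusted p under 0.05. That is 5.66% of this list and 0% of the respiratory chain genes, beside 4.81% of all probes. The median of the mitochondrial ribosomal members thus lay between these lists, at -0.04. Without the 4 arrays low in Ttr the medians were -0.03 for the respiratory chain, -0.07 for the members and -0.08 for the cytosolic ribosomal proteins. The differences between lists were not tested.

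**Figure D4:**
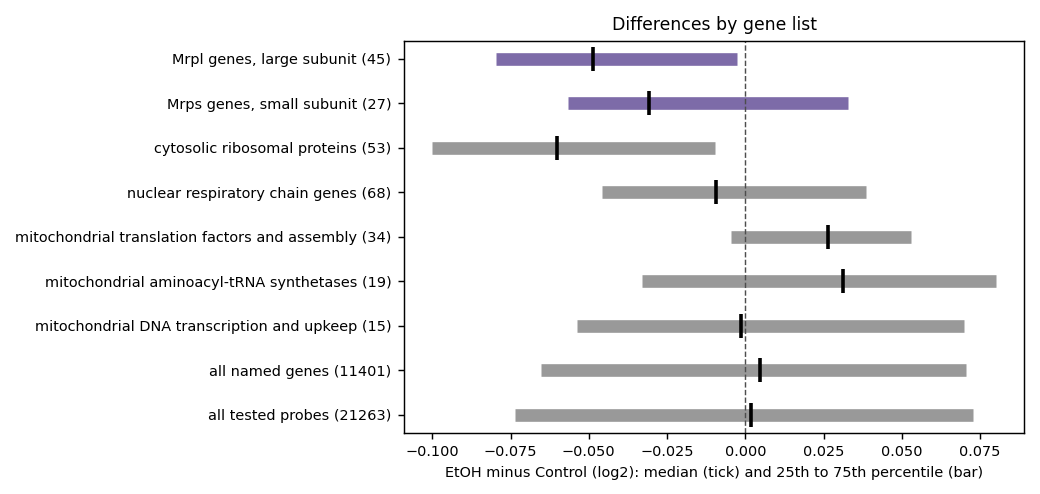
Median (tick) and quartile range (bar) of the EtOH minus Control differences on the log2 scale for the Mrpl and Mrps genes (purple), related lists and all features (grey), with the number of tested features in brackets. The Mrpl and Mrps medians of -0.05 and -0.03 lie between those of the cytosolic ribosomal proteins and the nuclear respiratory chain genes, and every median is within 0.07 of 0.

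What the members share at their promoters was read from sequence and not from the array signals. The motifs were chosen with earlier results known, and the NRF1 motif was shortened to its core after a first search. RefSeq promoter windows of 300 bases were matched by symbol for 67 of 76 members, 73 windows in all, and searched on both strands for the NRF1 core CGCATGCG, the ETS family motif CCGGAAG, the YY1 motif AAGATGGC, the CCAAT box CCAAT and the TATA box TATAAA. Matches were counted separately where motifs overlap. NRF1 and the ETS factor GABP are known activators of nuclear genes for mitochondria. The ETS motif was in 26 of 73 member windows, or 35.6%, and in 8.86% of all 32851 windows. It was in 15 of 47 windows of the large and 11 of 26 of the small subunit. The YY1 motif was in 12 windows (16.4%, with 2.75% of all) and the NRF1 core in 7 (9.59%, with 1.87%), 6 of the large and 1 of the small subunit. The CCAAT box was at 38.4% in members and 37.4% in all windows, and the TATA box at 6.85% in members and 13.6% in all windows. In windows of protein-coding genes, as the members are, the shares were 11.6% for ETS, 3.05% for YY1 and 2.52% for NRF1. The median number of CG pairs per 100 bases was 7.00 in members, 4.33 in protein-coding and 2.33 in all windows. The part of base composition in the motif shares was not tested. Windows of 1 gene can overlap. A match of letters is not a binding site.

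**Figure D5:**
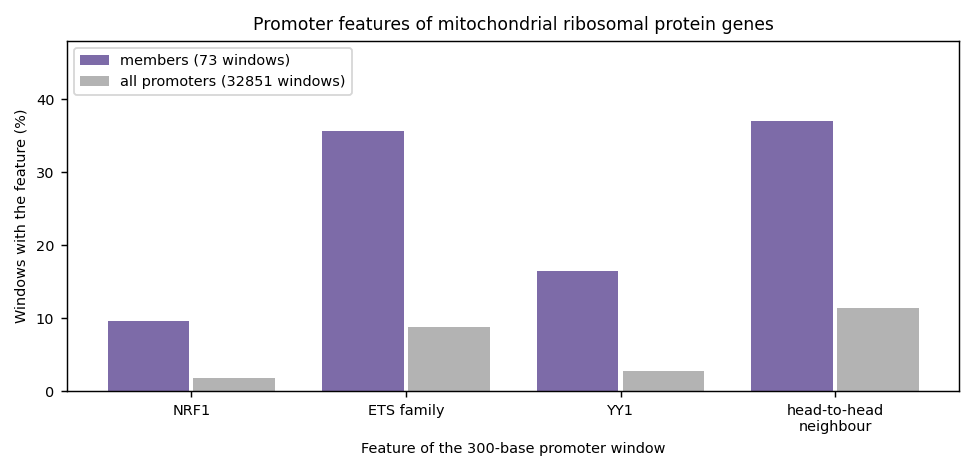
Share of 300-base promoter windows that hold the NRF1, ETS family or YY1 motif, or a gene start on the other strand within 1000 bases upstream, for members (purple, 73 windows) and all promoters (grey, 32851 windows). The members are at 9.59%, 35.6%, 16.4% and 37.0%, and all promoters at 1.87%, 8.86%, 2.75% and 11.4%.

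Many members also had a neighbour that starts close by and is read the other way. Whether such neighbours share a promoter was not tested. A start of another gene on the opposite strand lay within 1000 bases upstream in 27 of 73 member windows (37.0%), in 12.3% of protein-coding and in 11.4% of all windows. The neighbours included other mitochondrial genes. Mrps12 lies 147 bases from Sars2, the mitochondrial seryl-tRNA synthetase gene, Mrpl43 116 bases from Twnk, the mitochondrial DNA helicase gene, and Mrpl47 308 bases from Ndufb5, a complex I gene. Mrps11 and Mrpl46, 1 protein of each subunit, start 42 bases apart and share 141 bases of their windows. In 16 distinct pairs both genes were tested, and they had the same sign in 10, with 0 neighbours at an unadjusted p under 0.05 and a lowest adjusted p of 1.00 by limma. Of all probes 4.81% had an unadjusted p under 0.05. The pair Mrps11 and Mrpl46 differed by -0.11 and -0.07, Mrps12 and Sars2 by 0.02 and 0.16, and Mrpl43 and Twnk by -0.11 and -0.001.

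The next windows are shown for the pair that faces away from each other, for Mrps12 with matches to 3 of the motifs, and for Mrpl39, which holds an NRF1 match and had the highest difference of any member. Of the other members with an NRF1 match, Mrpl10 was at 0.08, Mrpl17 at 0.001, Mrpl9 at -0.04, Mrpl22 at -0.05 and Mrps18b at -0.11, and Mrpl32 had no tested probe. A relation between the motif and the differences was not tested. Mrps11 is on the plus strand at chr7:78782881-78783180 with 1 YY1 match and Mrpl46 on the minus strand at chr7:78783040-78783339 with 1 TATA match. Mrps12 on the minus strand at chr7:28741772-28742071 holds 1 YY1, 4 CCAAT and 1 ETS match, 6 in all, and Mrpl39 on the minus strand at chr16:84735195-84735494 has 1 CCAAT and 1 NRF1 match.
Mrps11: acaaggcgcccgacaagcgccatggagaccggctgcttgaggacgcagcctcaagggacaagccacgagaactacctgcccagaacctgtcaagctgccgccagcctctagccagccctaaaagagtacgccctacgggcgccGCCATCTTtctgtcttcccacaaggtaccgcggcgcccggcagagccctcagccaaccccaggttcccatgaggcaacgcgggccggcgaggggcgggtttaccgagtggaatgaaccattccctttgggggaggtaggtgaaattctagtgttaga
Mrpl46: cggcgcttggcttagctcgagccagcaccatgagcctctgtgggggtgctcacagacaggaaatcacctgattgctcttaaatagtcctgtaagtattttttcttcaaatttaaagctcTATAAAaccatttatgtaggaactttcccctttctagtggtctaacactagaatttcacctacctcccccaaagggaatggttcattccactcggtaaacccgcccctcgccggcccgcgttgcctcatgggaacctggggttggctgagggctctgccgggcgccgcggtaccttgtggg
Mrps12: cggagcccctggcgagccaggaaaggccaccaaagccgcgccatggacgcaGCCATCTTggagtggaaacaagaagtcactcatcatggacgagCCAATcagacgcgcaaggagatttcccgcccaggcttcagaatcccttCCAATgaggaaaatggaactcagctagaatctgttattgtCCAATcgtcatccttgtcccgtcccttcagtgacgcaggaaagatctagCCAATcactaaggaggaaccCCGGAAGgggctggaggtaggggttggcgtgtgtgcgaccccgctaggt
Mrpl39: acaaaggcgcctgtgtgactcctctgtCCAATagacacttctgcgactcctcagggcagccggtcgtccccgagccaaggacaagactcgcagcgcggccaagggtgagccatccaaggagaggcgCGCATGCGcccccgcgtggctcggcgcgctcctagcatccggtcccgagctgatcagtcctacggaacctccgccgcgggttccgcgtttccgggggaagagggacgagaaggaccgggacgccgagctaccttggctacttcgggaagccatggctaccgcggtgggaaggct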

How the data were processed

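The authors' deposited scanner table gives for 45281 probes and 12 arrays a bead intensity, linear and not normalized between arrays (medians 132.6 to 152.1), with its detection p-value beside it (columns named in the file headers). Their second deposited table holds intensities with the same median (141.6) in every column. GenomeStudio 1.9.0 is named in the submitters' processing notes, with no settings. With limma 3.58.1 in R 4.3.3, background was removed by normexp fitted through the detection p-values, an offset of 16 was added, and arrays were quantile normalized and put on the log2 scale. The offset draws differences of dim probes towards 0. Probes with a detection p under 0.05 on at least 6 arrays were kept (21263). The EtOH minus Control contrast was fitted with lmFit and eBayes, with Benjamini-Hochberg adjustment over all of them and a threshold of 0.05. The brightest tested probe stood for a gene. Probes were named through the platform annotation, and promoters through RefSeq. The fit was tested on simulated data. The number of arrays limits the precision.

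Members, lists, motifs and named genes were chosen with earlier results of these data known. Named were the 6 genes with the highest and the 6 with the lowest moderated t in each subunit, with genes fixed for their roles (34 in all). Of related lists, up to 3 genes were named by p. The split by bacterial homologues, the promoter motifs and the promoters printed were added later, the NRF1 motif was shortened to its core after a first search, and the fold bounds set beside the intervals were chosen with the intervals known. Numbers shared by replicates were not taken as pairs: deviations of same-numbered arrays from their group means correlated at -0.25 to 0.33, and correlations of signals between arrays ran from 0.981 to 0.993, with no identical arrays.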

Additional observations from a re-analysis of the deposited data

Results flagged for a closer look

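In 5 of 74 groups of 6 arrays (68 of the named members and 6 of array means over the subunits), the highest or lowest array was separated from the nearest of the others by over 0.625 of the group's range; chance gives about 1 in 20 such groups. Mrpl11 was at 10.46 in EtOH replicate 1, where the other EtOH arrays ran from 10.10 to 10.19. Mrps34 was at 12.06 in EtOH replicate 2, below the other EtOH arrays at 12.24 to 12.32. In Control replicate 5, Mrpl44 was at 9.94, with the others at 9.47 to 9.63, and Mrps21 was at 11.20, with the others at 10.82 to 10.94. Mrpl58 was at 8.58 in Control replicate 4, with the others at 8.74 to 8.81.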

How the results depend on the processing

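No member passed the threshold under any of the 25 alternatives (lowest adjusted p of a named member 0.674 by limma). Of 850 values of named members, 806 kept their direction, and 17 of 34 genes kept it throughout. Scaling to a common median gave medians of 0.0146 (large) and 0.0333 (small), 26 members lower and 0 at an unadjusted p under 0.05, and turned Mrpl3 (0.0449), Mrpl44 (0.0515), Mrps16 (0.00344), Mrps18a (0.0501) and Mrps18c (0.0333). On beadchip 1 alone 1 member had an unadjusted p under 0.05, and Mrpl3 (0.0437), Mrpl39 (-0.0332), Mrpl44 (0.0680), Mrpl50 (-0.0282), Mrps2 (-0.0764), Mrps12 (-0.0815), Mrps18a (0.0457) and Mrps22 (0.00538) turned. On beadchip 2 alone Mrpl4 (-0.0419), Mrps5 (-0.217) and Mrps18c (0.00489) turned. Array weights turned Mrps5 (-0.0272). The mean over a gene's probes gave a large minus small median of -0.0442 and turned Mrpl3 (0.0189), Mrps12 (-0.00140) and Mrps18b (0.0259). Without the 4 arrays low in Ttr, an alternative added with earlier results known, Mrps5 (-0.0598), Mrps9 (-0.00497), Mrps30 (-0.00323) and Mrps34 (-0.0345) turned. The cause of these turns was not tested.

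Leaving out single arrays moved the large subunit median from -0.0650 to -0.0331, the small from -0.0427 (without Control replicate 1) to -0.00445 (without Control replicate 5), the large minus small median from -0.0392 to -0.0149, the members lower in EtOH from 45 to 57 and those at an unadjusted p under 0.05 from 1 to 4. It moved Mrpl3 from -0.0646 to 0.0101, Mrpl44 from -0.0382 to 0.0561, Mrpl50 from -0.00295 to 0.0795, Mrps2 from -0.000805 to 0.0837, Mrps5 from -0.0284 to 0.0682, Mrps12 from -0.00340 to 0.0542, Mrps18a from -0.0427 to 0.00897, Mrps18c from -0.0745 to 0.00547 and Mrps28 from -0.00253 to 0.123. With the replicate block the medians were -0.0485 (large) and -0.0308 (small) and 3 members had an unadjusted p under 0.05, as without it; balance fixes the differences under this block and the beadchip block.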
